A study of Homo sapiens with 6 samples.

Results

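Tetraspanins are small membrane proteins that cross the membrane 4 times and gather integrins, proteases and adhesion molecules around them. The genes described here were the rows of the deposited table whose gene name is TSPAN followed by a number, or CD9, CD37, CD53, CD63, CD81, CD82, CD151 or UPK1A. This rule took 30 of the 35856 genes in the table, 22 of them with a TSPAN symbol. UPK1B, which the rule also names, was not analysed here. Of the 30 tetraspanins, 26 had enough reads for edgeR's filter (filterByExpr) and belong to the 20741 genes tested.

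Tetraspanins bind one another and their partners in patches of the plasma membrane known as the tetraspanin web. CD9, CD63 and CD81 are the usual marker proteins of extracellular vesicles, CD151 holds laminin-binding integrins, and CD81 is a receptor used by hepatitis C virus to enter hepatocytes. A subgroup called TspanC8 escorts the metalloprotease ADAM10 to the cell surface, while CD37, CD53 and TSPAN32 are known from leukocytes and UPK1A from the urothelium.

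The RNA came from HCCLM3, an established human hepatocellular carcinoma cell line that the labels describe as hepatoma cells. There were 3 libraries of cells transfected with an empty vector, here called Empty and labelled NC, and 3 libraries of cells transfected with a vector carrying the long noncoding RNA LINC00862. The study asked which RNAs change when LINC00862 is overexpressed. The labels give neither the time after transfection nor whether the libraries came from separate cultures, so the p-values measure only the spread between these libraries, which may be technical. In bulk RNA, a change in the cells that make up a sample and a change in the RNA per cell cannot be told apart.

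LINC00862 itself was counted 11, 21 and 6 times in Empty and 145, 121 and 76 times in the cells carrying its vector. Its log2 fold change, LINC00862 over Empty, was 3.22 with a standard error (SE) of 0.53 (adjusted p = 0.000583 by the quasi-likelihood test of edgeR, with the Benjamini-Hochberg method over all tested genes), so the overexpressed gene stood on the side that the labels give. RBM47, an RNA-binding protein named in the study's title, had a log2 fold change of 5.40 (SE 0.25, adjusted p = 2.8e-07 by edgeR). The libraries held 58241123 to 68229070 counts. Across the tested genes, Spearman's rank correlation of FPKM (fragments per kilobase of transcript scaled to library depth) was 0.969 to 0.983 between libraries of one group and 0.719 to 0.733 between libraries of different groups. Gene activity therefore differed broadly, with 64.2% of all tested genes called at an adjusted p under 0.05. The LINC00862 transcript itself stayed at a low level, with means of 0.0507 FPKM in Empty and 0.449 FPKM in the cells carrying its vector.

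Markers of cell identity moved with the groups. The 6 mesenchymal markers, VIM and CDH2 among them, summed to between 699 and 763 FPKM in Empty and to between 4.69 and 5.47 FPKM in LINC00862, and 6 of 6 were lower. The 7 hepatocyte markers in the table summed to between 2.94 and 3.46 FPKM in Empty and to between 539 and 618 FPKM in LINC00862, and of the 6 tested 5 were higher and 1 was lower. FGB, a fibrinogen chain, carried this sum with 524.5 to 598 FPKM in LINC00862, TF and ALB had means of 15.5 and 1.51 FPKM there, and 3 of the 7 markers were under 1 FPKM in both groups. Epithelial markers summed to 193.8 to 287.4 FPKM in Empty and 441.5 to 506.3 FPKM in LINC00862, with 5 of 6 higher. The hepatoma markers AFP and GPC3 were under 1 FPKM in both groups, so the labelled cell type had no support from them in either group. Leukocyte, endothelial, platelet, melanocyte and urothelial markers summed to at most 2.78, 1.50, 0.539, 0.528 and 0.0215 FPKM in any Empty library and to at most 7.13, 5.82, 0.966, 0.598 and 0.146 FPKM in any LINC00862 library. Of these, CD14, CDH5 and ITGA2B were called higher and none was called lower. The endothelial marker CDH5 had means of 0.403 FPKM in Empty and 4.47 FPKM in LINC00862 (log2 fold change 3.63, adjusted p = 4.1e-07 by edgeR). The part of this shift in the tetraspanin values was not tested, and a response of the cells to LINC00862 cannot be told apart from a difference in which cells each group held.

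Of the 26 tested tetraspanins, 19 (73.1%) were called at an adjusted p under 0.05, beside 64.2% of all tested genes. Of these, 10 were higher in LINC00862 (34.4% of all tested genes were) and 9 were lower (29.8% of all tested genes were). Changes of at least 2-fold were called for 16 members, 8 in each direction, beside 49.8% of all tested genes. The FPKM of 20 members did not overlap between the groups, beside 71.1% of all tested genes, with 10 higher (34.4% of all tested genes) and 10 lower (36.6%). These shares lay near or moderately above the background, whereas the single changes were wide, from a log2 fold change of -5.12 for CD9 to 9.08 for TSPAN12. The median log2 fold change of the 26 members was 0.0092, also with TSPAN19 set at its bound, beside 0.11 for all tested genes.

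**Figure D1:**
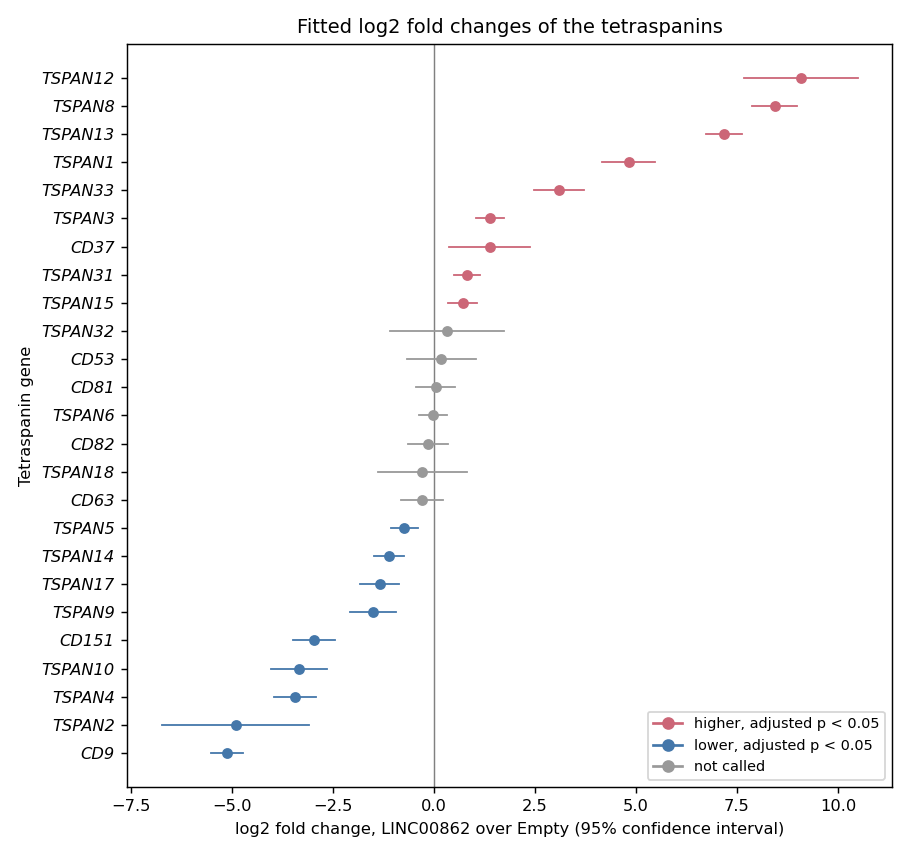
Fitted log2 fold change of each tested tetraspanin with reads in both groups, LINC00862 over Empty, with 95% confidence intervals from edgeR, 3 libraries a group. The points run from -5.12 for CD9 to 9.08 for TSPAN12, with CD81, TSPAN6 and CD82 close to 0.

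The family's summed level changed less than its makeup. The FPKM of the 30 members summed to 455.1, 571.1 and 690.9 in the Empty libraries and to 712.2, 672.1 and 627.4 in the LINC00862 libraries. The groups overlapped (572.4 ± 118 against 670.5 ± 42.4, SD, n = 3, exact two-sided permutation p = 0.3). With FPKM rescaled to the same total in every library, the difference changed sign, with 1756 ± 319 in Empty and 1493 ± 235 in LINC00862 (SD, n = 3, exact permutation p = 0.5). The total FPKM of a library was 1.395 times as high in LINC00862 as in Empty. Without CD63, the most abundant member, the sum was 212 ± 25.8 FPKM in Empty and 408 ± 16.5 FPKM in LINC00862 (SD, n = 3, exact permutation p = 0.1, the smallest that 3 libraries against 3 allow). This last sum was not rescaled to equal totals, so the higher library totals in LINC00862 enter its difference.

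CD63 held 62.5% ± 3.56 of the summed FPKM in Empty and 39.0% ± 1.4996 in LINC00862 (SD, n = 3, exact permutation p = 0.1, 0.111 after Benjamini-Hochberg adjustment over the 20 members compared). It was the most abundant tetraspanin in every library. Below it the order changed. In Empty, CD63, CD151, CD9 and CD81 together held 82.4% to 87.1% of the summed FPKM. In LINC00862, CD63, TSPAN13, TSPAN8 and TSPAN3 held 85.1% to 87.9%. By mean FPKM, CD9 stood at rank 3 in Empty and rank 18 in LINC00862, while TSPAN13 stood at ranks 16 and 2 and TSPAN8 at ranks 21 and 3. Of the 20 members with a mean of at least 1 FPKM in either group, 12 had a lower share in LINC00862 and 8 a higher one. The shares of 18 did not overlap between the groups and reached the smallest p of 0.1, and those of CD82 and TSPAN15 overlapped (exact permutation p = 0.2). Because shares add to a fixed total, a rise in one member lowers the others.

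**Figure D2:**
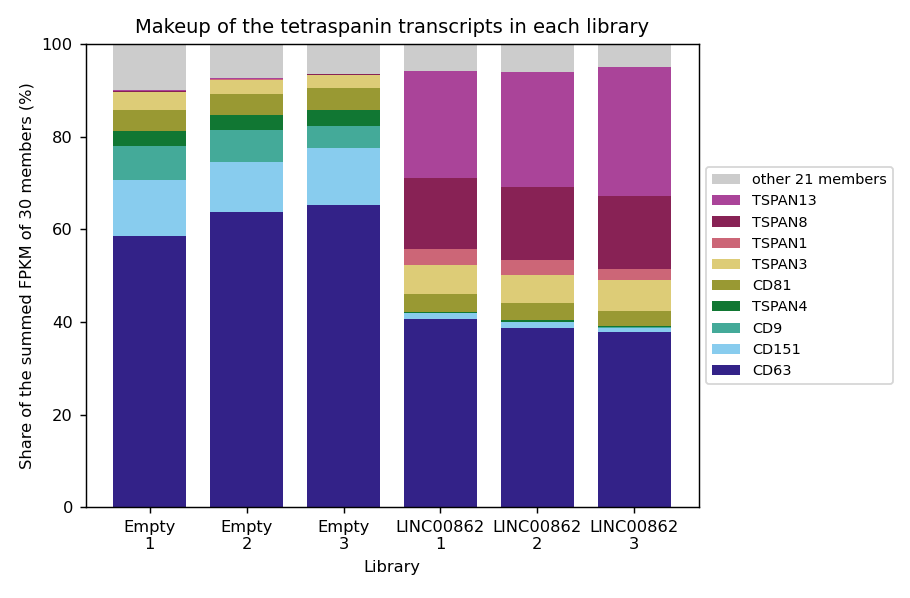
Share of the summed tetraspanin FPKM in each of the 6 libraries, in percent, with 9 members drawn separately and the other 21 together. CD63 takes 58.5% to 65.3% in Empty and 37.8% to 40.7% in LINC00862, where TSPAN13 and TSPAN8 take 23.1% to 27.7% and 15.5% to 15.8%.

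The largest rises among members that are abundant in LINC00862 were those of TSPAN13, TSPAN8 and TSPAN1. TSPAN13 (ENSG00000106537, hg38 chromosome 7 from 16753755 to 16784536, plus strand) had 1.35, 1.46 and 1.12 FPKM in Empty and 164.7, 166.4 and 173.7 FPKM in LINC00862. The groups were far apart and the LINC00862 libraries lay close together. Its counts were 179, 191 and 150 against 25231, 22009 and 23335, and the log2 fold change was 7.18 (SE 0.20, adjusted p = 2.94e-08 by edgeR). TSPAN8 (ENSG00000127324, chromosome 12 from 71125085 to 71441898, minus strand) is an integrin-binding member known from digestive tract epithelia and their tumours. It had 0.321, 0.245 and 0.415 FPKM in Empty and 110.0, 106.3 and 98.6 FPKM in LINC00862, which is 54, 40 and 69 counts against 20346, 16973 and 15980. All 3 Empty libraries were under 1 FPKM and all 3 LINC00862 libraries were above 98 FPKM, with a log2 fold change of 8.44 (SE 0.25, adjusted p = 3.26e-08 by edgeR).

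TSPAN1, known from secretory epithelia, had 0.718, 0.552 and 1.10 FPKM in Empty and 23.7, 21.3 and 16.0 FPKM in LINC00862 (ENSG00000117472, chromosome 1 from 46175073 to 46185962, plus strand). Every LINC00862 library was higher than every Empty library, and the log2 fold change was 4.82 (SE 0.29, adjusted p = 1.3e-06 by edgeR). TSPAN12 (ENSG00000106025) works with the receptor Frizzled-4 in Norrin signalling. It was close to silent in Empty, with counts of 4, 0 and 0, and had counts of 835, 691 and 677 in LINC00862, or 3.29, 3.15 and 3.05 FPKM. The ratio of the summed counts was 525, with an exact 95% interval of 205 to 1927 that covers counting error only. The fitted log2 fold change was 9.08 (SE 0.62, adjusted p = 2.84e-06 by edgeR). All Empty reads lay in Empty replicate 1, and without that library the fitted value was 12.54, which then depends on the prior count and is no measure of size.

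TSPAN3 and TSPAN31 rose from levels that were already measurable. TSPAN3 had 17.2, 18.2 and 19.0 FPKM in Empty and 44.8, 40.2 and 42.1 FPKM in LINC00862, a log2 fold change of 1.39 (SE 0.15, adjusted p = 4.63e-05 by edgeR). TSPAN31 had 2.91, 2.83 and 2.67 FPKM in Empty and 4.77, 4.37 and 4.07 FPKM in LINC00862, a log2 fold change of 0.82 (SE 0.14, adjusted p = 0.000741). For both genes every LINC00862 library was above every Empty library. TSPAN31 overlaps CDK4 on the opposite strand. CDK4, which drives cells from the first gap phase into DNA synthesis, had a mean of 74.1 FPKM in Empty and 25.3 FPKM in LINC00862, so its level moved the other way.

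**Figure D3:**
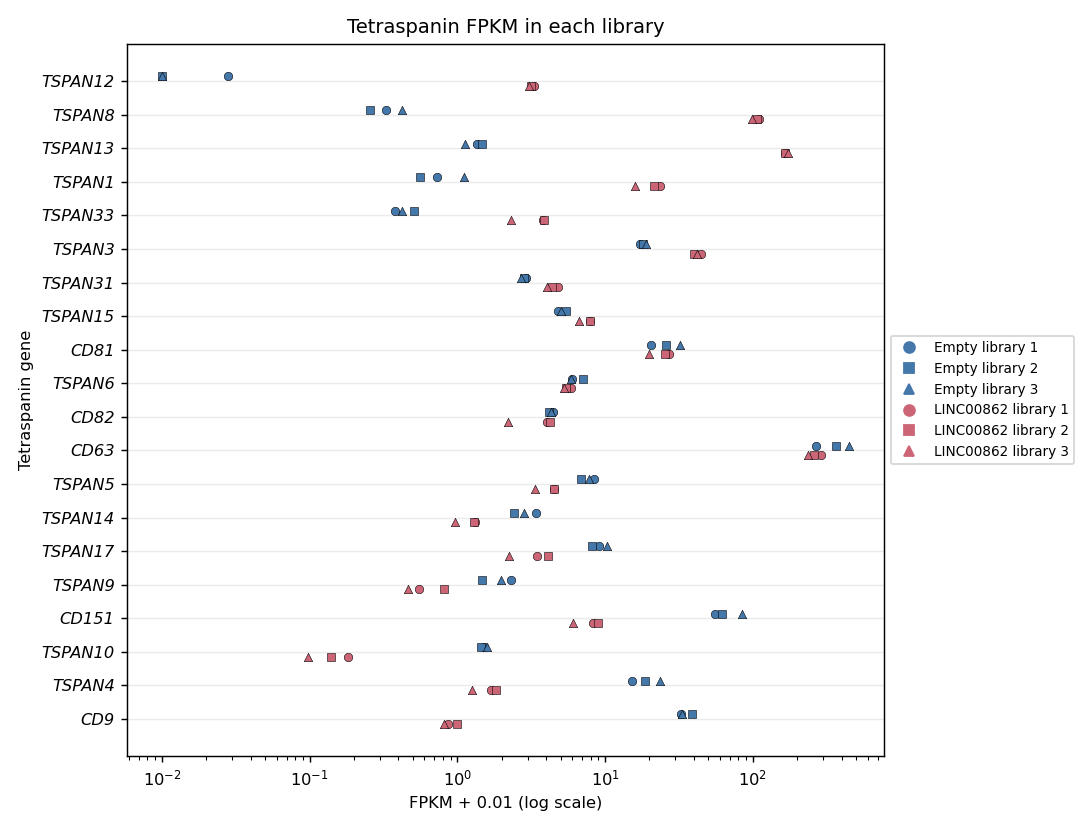
FPKM of the 20 tetraspanins with a mean of at least 1 FPKM in either group, plotted as FPKM + 0.01 on a log axis, with 1 point for each of the 3 Empty and 3 LINC00862 libraries. TSPAN13 and TSPAN8 lie under 2 FPKM in Empty and above 90 FPKM in LINC00862, CD9 lies above 30 FPKM in Empty and under 1 FPKM in LINC00862, and the CD63, CD81 and CD82 points overlap between the groups.

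Of the 5 members of the tetraspanin web and of vesicles, 2 fell and 3 were not called, beside 64.2% called and 29.8% lower among all tested genes. CD9 (ENSG00000010278, chromosome 12 from 6199715 to 6238271, plus strand), which binds the immunoglobulin proteins IGSF8 and PTGFRN, had the largest fall of all members. Its FPKM was 32.9, 38.5 and 33.2 in Empty and 0.859, 0.985 and 0.808 in LINC00862. All 3 LINC00862 libraries were under 1 FPKM, and the counts were 9072, 10482 and 9229 against 275, 273 and 228. The log2 fold change was -5.12 (SE 0.17, adjusted p = 6.37e-08 by edgeR). CD151 (ENSG00000177697), which anchors the laminin receptors, had 55.7, 62.1 and 85.2 FPKM in Empty and 8.29, 8.91 and 6.03 FPKM in LINC00862. The groups did not overlap and the log2 fold change was -2.97 (SE 0.23, adjusted p = 5.54e-06). CD151 overlaps POLR2L on the opposite strand, whose mean was 98.0 FPKM in Empty and 17.5 FPKM in LINC00862, and whether the counting separated the strands is not given in the sources used here.

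CD63, a tetraspanin of late endosomes and lysosomes, had 266.1, 363.8 and 450.8 FPKM in Empty and 289.9, 259.4 and 237.1 FPKM in LINC00862. The groups overlapped, and the log2 fold change of -0.30 was not called (SE 0.23, adjusted p = 0.275 by edgeR). Empty replicate 1 decided this, since without it the value was -0.51 with an adjusted p of 0.0157. CD81 had 20.5, 25.9 and 32.2 FPKM in Empty and 27.2, 25.7 and 19.9 FPKM in LINC00862. Its log2 fold change was 0.04 with a 95% interval of -0.43 to 0.52 (adjusted p = 0.867), and it changed sign under library size scaling (-0.10), limma (-0.10 at either pseudocount) and without Empty replicate 1 (-0.14) or LINC00862 replicate 1 (-0.03). CD82, known as a suppressor of metastasis, had 4.40, 4.17 and 4.31 FPKM in Empty and 4.06, 4.25 and 2.21 FPKM in LINC00862. LINC00862 replicate 3 stood apart from the other 5 libraries, and the log2 fold change of -0.13 was not called (SE 0.22, adjusted p = 0.618), with 0.08 without that library and 0.07 under upper quartile scaling.

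Ratios within a library do not depend on how libraries are scaled. CD9 over CD81 was 1.60, 1.49 and 1.03 in Empty and 0.0316, 0.0384 and 0.0405 in LINC00862. CD151 over CD81 was 2.72, 2.40 and 2.65 against 0.305, 0.347 and 0.302. CD63 over CD81 was 13.0, 14.1 and 14.0 against 10.7, 10.1 and 11.9. The vesicle trio CD9, CD63 and CD81 thus changed unequally, with CD9 dropping out of proportion to the other two. TSPAN13 over CD9 went from 0.0409, 0.0379 and 0.0337 in Empty to 191.8, 168.9 and 215.0 in LINC00862, so that the order of these 2 genes was inverted in every library.

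TSPAN4 and TSPAN9 fell as well. TSPAN4, known as a marker of migrasomes, which are vesicles left behind by migrating cells, had 15.3, 18.7 and 23.6 FPKM in Empty and 1.67, 1.82 and 1.25 FPKM in LINC00862. The groups did not overlap, and the log2 fold change was -3.44 (SE 0.23, adjusted p = 2.51e-06 by edgeR). TSPAN9 had 2.32, 1.46 and 1.97 FPKM in Empty and 0.540, 0.799 and 0.457 FPKM in LINC00862, a log2 fold change of -1.50 (SE 0.25, adjusted p = 0.00065). TSPAN4 and TSPAN9 overlap AP006623.1 and AC005912.1, respectively, on the opposite strand. Those had 296 and 2080 counts over the Empty group and 1604 and 6493 over the LINC00862 group. TSPAN6 stayed without a call. Its 6.01, 7.04 and 5.89 FPKM in Empty lay just above 5.85, 5.45 and 5.23 FPKM in LINC00862, but the log2 fold change was -0.03 with a 95% interval of -0.37 to 0.32 (adjusted p = 0.891), and its sign turned under DESeq2 (0.02), upper quartile scaling (0.19) and without Empty replicate 2 (0.08) or LINC00862 replicate 2 (0.02).

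All 6 TspanC8 genes were called, 2 higher and 4 lower, beside 64.2% of all tested genes. These proteins bind ADAM10 and differ in where they take it and in which substrates it then cuts. TSPAN33 had 0.367, 0.501 and 0.414 FPKM in Empty and 3.79, 3.85 and 2.31 FPKM in LINC00862, a log2 fold change of 3.09 (SE 0.27, adjusted p = 1.34e-05 by edgeR). TSPAN15, which is known to favour N-cadherin as a substrate, had 4.83, 5.46 and 5.04 FPKM in Empty and 7.96, 7.89 and 6.63 FPKM in LINC00862, a log2 fold change of 0.72 (SE 0.16, adjusted p = 0.00311). These were the only TspanC8 genes that rose.

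The other 4 fell. TSPAN10 had 1.51, 1.44 and 1.57 FPKM in Empty and 0.172, 0.130 and 0.0873 FPKM in LINC00862, a log2 fold change of -3.34 (SE 0.30, adjusted p = 1.58e-05 by edgeR). It overlaps NPLOC4 on the opposite strand, whose mean was 20.5 FPKM in Empty and 10.01 FPKM in LINC00862. TSPAN17 had 9.06, 8.16 and 10.4 FPKM in Empty and 3.46, 4.10 and 2.21 FPKM in LINC00862, a log2 fold change of -1.34 (SE 0.21, adjusted p = 0.000452). TSPAN14, with 3.42, 2.40 and 2.83 FPKM against 1.31, 1.29 and 0.953 FPKM, had a log2 fold change of -1.11 (SE 0.16, adjusted p = 0.000286). TSPAN5, with 8.38, 6.85 and 7.75 FPKM against 4.49, 4.50 and 3.33 FPKM, had a log2 fold change of -0.73 (SE 0.15, adjusted p = 0.00188). For each of the 6 genes, the Empty and LINC00862 values did not overlap.

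The summed TspanC8 level was 26.8 ± 1.72 FPKM in Empty and 19.5 ± 3.45 FPKM in LINC00862 (SD, n = 3, exact permutation p = 0.1). This sum was not rescaled to equal totals either, and the total FPKM of a library was 1.395 times as high in LINC00862. The size of its difference therefore depends on the scaling. TSPAN17 held the largest part of the TspanC8 sum in Empty, 34.3% ± 2.41, and 16.5% ± 2.30 in LINC00862 (SD, n = 3). TSPAN15 held 19.2% ± 2.46 in Empty and the largest part in LINC00862, 38.9% ± 3.41. TSPAN33 went from 1.61% ± 0.361 to 16.8% ± 1.69, and TSPAN10 from 5.63% ± 0.151 to 0.656% ± 0.134. The leading TspanC8 transcript therefore differed between the groups.

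**Figure D4:**
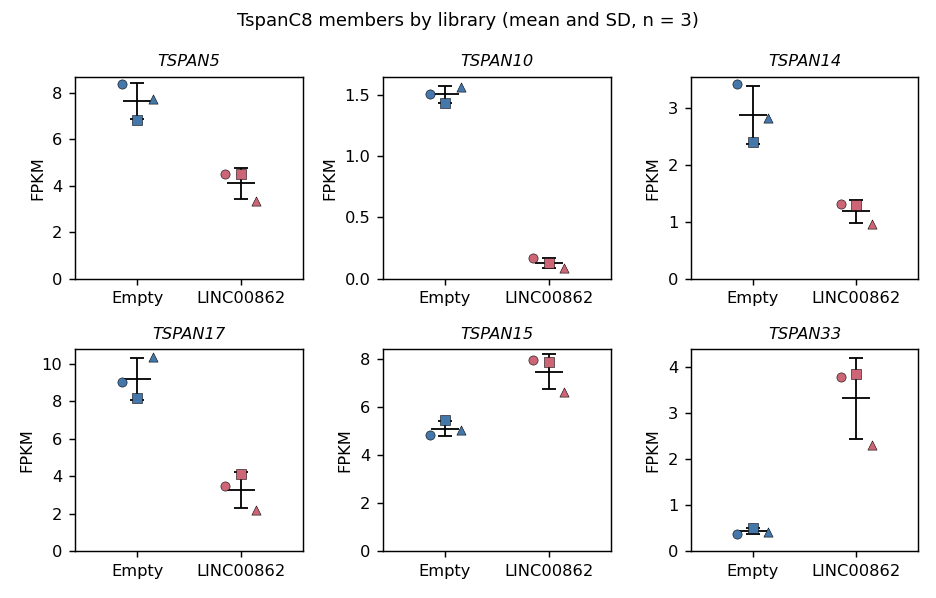
FPKM of the 6 TspanC8 genes in each of the 3 Empty and 3 LINC00862 libraries, 1 panel a gene with its own axis from 0, with the mean as a dash and the SD as bars. TSPAN15 and TSPAN33 lie higher in every LINC00862 library, and TSPAN5, TSPAN10, TSPAN14 and TSPAN17 lie lower.

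Promoter sequences are shown for TSPAN1, which rose, and for 4 TspanC8 genes, because genes of this role moved in opposite directions. Of these 4, TSPAN33 and TSPAN15 rose and TSPAN5 and TSPAN10 fell. The first windows of TSPAN14 and TSPAN17 are not printed, since 144 and 97 of their bases lie in annotated exons of these genes. Each sequence shown is the 250 bases before the first listed RefSeq start (GRCh38.p14). It is read 5′ to 3′ on the gene's strand, with CpG dinucleotides in capitals. The windows are chr1:46174837-46175086 (plus) for TSPAN1, chr7:129144457-129144706 (plus) for TSPAN33, chr10:69451215-69451464 (plus) for TSPAN15, chr4:98658612-98658861 (minus) for TSPAN5 and chr17:81642055-81642304 (plus) for TSPAN10.
TSPAN1: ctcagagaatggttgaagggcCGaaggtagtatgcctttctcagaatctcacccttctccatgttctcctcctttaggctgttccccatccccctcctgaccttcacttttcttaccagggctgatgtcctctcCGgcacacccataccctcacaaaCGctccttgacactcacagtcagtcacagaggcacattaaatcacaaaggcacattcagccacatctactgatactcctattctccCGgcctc
TSPAN33: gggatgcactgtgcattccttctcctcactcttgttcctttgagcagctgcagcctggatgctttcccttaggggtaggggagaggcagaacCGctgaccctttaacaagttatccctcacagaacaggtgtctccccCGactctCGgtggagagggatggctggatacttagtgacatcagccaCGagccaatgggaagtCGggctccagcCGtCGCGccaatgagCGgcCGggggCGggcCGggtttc
TSPAN15: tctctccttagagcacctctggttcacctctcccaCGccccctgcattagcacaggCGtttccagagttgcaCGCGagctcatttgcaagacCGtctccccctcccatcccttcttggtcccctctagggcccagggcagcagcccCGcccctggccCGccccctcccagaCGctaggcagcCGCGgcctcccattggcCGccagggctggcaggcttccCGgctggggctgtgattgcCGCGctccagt
TSPAN5: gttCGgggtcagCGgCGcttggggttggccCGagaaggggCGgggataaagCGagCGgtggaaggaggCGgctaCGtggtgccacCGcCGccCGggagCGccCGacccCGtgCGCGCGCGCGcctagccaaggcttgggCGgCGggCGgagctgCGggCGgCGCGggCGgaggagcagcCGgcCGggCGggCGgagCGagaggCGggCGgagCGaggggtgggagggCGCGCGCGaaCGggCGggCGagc
TSPAN10: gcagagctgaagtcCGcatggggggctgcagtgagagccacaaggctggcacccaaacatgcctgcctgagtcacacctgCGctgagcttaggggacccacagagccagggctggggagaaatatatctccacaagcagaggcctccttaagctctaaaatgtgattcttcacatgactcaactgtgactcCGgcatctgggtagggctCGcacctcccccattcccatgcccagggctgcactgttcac

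The windows of TSPAN1, TSPAN33, TSPAN15, TSPAN5 and TSPAN10 held 4, 12, 14, 43 and 4 CpG. The median over all 35116 RefSeq windows of this length was 11. TSPAN5 lay near the top, since 99.2% of all windows held as many or fewer, and TSPAN1 and TSPAN10 lay lower, at 34.3%. CpG content did not follow direction among these 5 genes, since TSPAN5 and TSPAN10 both fell. The TSPAN10 window lies inside the span of the gene in the deposited table, which starts at 81637171. In the first windows of TSPAN14 and TSPAN17, which also fell, CpG numbered 45 and 19, and in the other TSPAN14 windows 3 and 2. Both first windows held more CpG than those of TSPAN33 and TSPAN15, which rose. Searched on both strands, the GC box GGGCGG occurred 10 times in the TSPAN5 window, 2 times in that of TSPAN15 and 1 time in that of TSPAN33, and 42.6% of all windows held it. The E-box CAGGTG occurred 1 time in the TSPAN33 window and 1 time in that of TSPAN10, and 17.5% of all windows held it. TGANTCA, an AP-1 motif, occurred 2 times in the TSPAN10 window and in 6.57% of all windows. TATAAA was in none of the 5 windows and in 10.7% of all windows.

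RefSeq entries were found for 22 of the 30 tetraspanins. The genes CD151, CD37, CD81, TSPAN18, TSPAN3, TSPAN32, TSPAN7 and TSPAN9 had none in the table used. The first windows of TSPAN13, TSPAN8 and CD9 held 22, 1 and 10 CpG. Of their 250 bases, 220, 100 and 231 lie in annotated exons of the same gene. CD9 has 4 listed starts, and its other windows held 28, 29 and 1 CpG. Over the first window of each gene, the median CpG number was 11 in the 8 members called higher and 30 in the 7 called lower. This is a description of few genes, and no test was made of it.

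Among the 3 leukocyte members, CD37 had 0.377, 0.160 and 0.103 FPKM in Empty and 0.536, 0.467 and 0.459 FPKM in LINC00862. CD37 overlaps TEAD2 and AC011450.1 on the opposite strand, with 2760 and 72 counts over the Empty group and 2842 and 341 over the LINC00862 group. Its log2 fold change of 1.38 was called (SE 0.45, adjusted p = 0.0229 by edgeR). The call was lost without Empty replicate 2 (1.23, adjusted p = 0.0723 by edgeR), LINC00862 replicate 1 (1.33, 0.0666) or LINC00862 replicate 3 (1.37, 0.0591), and with libraries scaled by size only (1.18, 0.0515), while without Empty replicate 1 the value was 1.99. CD53 and TSPAN32 were not called, with log2 fold changes of 0.19 and 0.33 (adjusted p = 0.677 and 0.663 by edgeR), and CD53 turned to -0.08 without LINC00862 replicate 2 and to -0.0071 and -0.04 under limma. Of the 5 leukocyte markers, PTPRC, CD3E, MS4A1 and CD79A had means under 1 FPKM in both groups and were not called or not tested. CD14, a marker of monocytes, was higher, with means of 1.69 and 5.59 FPKM (log2 fold change 1.88, adjusted p = 9.73e-05 by edgeR).

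There were 10 members under 1 FPKM on average in both groups, 6 of them tested and 3 called, beside 64.2% of all tested genes. TSPAN2 had counts of 138, 47 and 86 in Empty and 4, 0 and 4 in LINC00862, a log2 fold change of -4.90 (SE 0.80, adjusted p = 0.000601 by edgeR). TSPAN19 had no reads in Empty and counts of 59, 12 and 42 in LINC00862, which is at least 35.9-fold higher against a floor of 3 counts over the Empty group (adjusted p = 0.00114 by edgeR). The third of them was CD37. TSPAN18 had a log2 fold change of -0.28 (adjusted p = 0.637 by edgeR). The 4 members left out by the filter were TSPAN7, TSPAN11, TSPAN16 and the urothelial UPK1A. UPK1A had counts of 10, 25 and 23 in Empty and 0, 0 and 3 in LINC00862. It overlaps UPK1A-AS1 on the opposite strand, which had 72 counts over the Empty group and 0 over the LINC00862 group. When edgeR was run on every gene that had a read, UPK1A came to a log2 fold change of -4.003 (adjusted p = 0.0316), and those of TSPAN11, TSPAN16 and TSPAN7 were -1.004, 2.16 and 1.44 (adjusted p = 0.298, 0.33 and 0.474).

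The deposited table gives the Gene Ontology term extracellular exosome to 11 of the 30 tetraspanins. Of the 10 tested, 5 were called, 4 higher and 1 lower, and their log2 fold changes ran from -5.12 to 8.44. The share called was 50%, beside 64.2% of all tested genes.

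Chromosome 12 holds 7 of the members and chromosome 11 holds 6. CD151 and TSPAN4 are neighbours on chromosome 11, with 3976 bases between them on the same strand, and both fell. TSPAN32 and CD81 lie 57976 bases apart and neither was called. CD82 and TSPAN18 lie 106755 bases apart and neither was called. Whether neighbouring position bears on these values was not tested.

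Among 11 genes known as direct tetraspanin partners, 10 were called, 3 higher and 7 lower, beside 64.2% of all tested genes. EPCAM, an epithelial adhesion molecule, had a mean of 0.547 ± 0.0819 FPKM in Empty and 159.8 ± 10.8 FPKM in LINC00862 (SD, n = 3, log2 fold change 8.34, adjusted p = 2.63e-08 by edgeR). CLDN7, a tight junction protein that joins EPCAM and TSPAN8 in one complex, had 0.618 ± 0.0877 and 116.1 ± 31.4 FPKM (SD, n = 3, log2 fold change 7.68, adjusted p = 6.37e-08 by edgeR). These 2 genes moved the same way as TSPAN8. CD44, which is also in this list, moved the other way, with a log2 fold change of -3.19 (adjusted p = 3.07e-07 by edgeR). The integrin chain ITGA3, which binds CD151, had 91.9 ± 15.7 and 8.12 ± 1.12 FPKM (SD, n = 3, log2 fold change -3.32, adjusted p = 4.61e-07 by edgeR). ITGB4, another chain of the laminin receptors, had 22.3 ± 3.08 and 1.27 ± 0.182 FPKM (SD, n = 3, log2 fold change -3.96, adjusted p = 1.66e-07 by edgeR). Both integrin chains moved the same way as CD151. Chosen after their values were seen, the CD9 partners IGSF8 and PTGFRN had log2 fold changes of 1.17 (adjusted p = 0.000844 by edgeR) and -0.24 (adjusted p = 0.35).

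ADAM10 had 5.58 ± 2.40 FPKM in Empty and 2.71 ± 0.177 FPKM in LINC00862 (SD, n = 3), a log2 fold change of -0.85 (adjusted p = 0.0107 by edgeR). In the list of ADAM10 and its substrates, which shares ADAM10 and CD44 with the partner list, 7 of 9 genes were called, 2 higher and 5 lower, beside 64.2% of all tested genes. L1CAM, a neural adhesion molecule, had a log2 fold change of -8.19 (adjusted p = 2e-07 by edgeR). CDH2, or N-cadherin, had -7.43 (adjusted p = 6.47e-08) and CDH1, or E-cadherin, had 6.57 (adjusted p = 2.63e-08). CD44, a hyaluronan receptor, had -3.19 (adjusted p = 3.07e-07). The 2 cadherins, both cut by ADAM10, thus moved in opposite directions. CDH1 and the TSPAN8 partner EPCAM are also among the epithelial markers given earlier, and CDH2 is among the mesenchymal ones. Their values are therefore not separate from that marker shift.

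In the machinery that forms multivesicular bodies and exosomes, 10 of 15 genes were called, 5 higher and 5 lower, close to the background of 64.2%. SDCBP, or syntenin, which binds CD63, had a log2 fold change of 1.21 (adjusted p = 7.74e-05 by edgeR). RAB27B, which docks these bodies at the plasma membrane, had 1.25 (adjusted p = 0.0017). FLOT2, a membrane raft protein, had -1.53 (adjusted p = 0.000172), and HGS, which sorts ubiquitinated cargo, had -1.24 (adjusted p = 6.28e-05). The log2 fold changes of this list ran from -1.53 to 1.25, and 5 of its 15 genes were not called.

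TSPAN12's receptor complex was measured through 3 of 4 listed genes. FZD4 and LRP5 were higher, with log2 fold changes of 1.34 and 1.15 (adjusted p = 0.000333 and 0.000374 by edgeR), and LRP6 had -0.24 (adjusted p = 0.414), which turned to 0.11 without Empty replicate 1. Of the hepatitis C virus entry factors besides CD81, the 4 counted here were all called, 2 higher and 2 lower, beside 64.2%, 34.4% and 29.8% of all tested genes, of which OCLN was sensitive to the fit. The lipoprotein receptor SCARB1 had a log2 fold change of -1.19 (adjusted p = 0.000261 by edgeR), and the junction protein CLDN1 had 0.94 (adjusted p = 0.00331). OCLN had -0.42 with an adjusted p of 0.0491 by edgeR and lost its call under 9 of the 13 alternative fits. The cholesterol transporter NPC1L1 was listed at 0 in every Empty library and had a mean of 0.104 FPKM in LINC00862.

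Genes related to tetraspanins in name or structure were counted last. In the L6 family, 3 of 4 tested genes were called, beside 64.2% of all tested genes. The liver and intestinal member TM4SF4 had counts of 4, 0 and 0 in Empty and 422, 362 and 383 in LINC00862, a count ratio of 278 with an exact 95% counting interval of 108 to 1022. Its fitted log2 fold change was 8.17 (adjusted p = 1.06e-05 by edgeR), and 11.63 without Empty replicate 1, which leaves no Empty reads. TM4SF19 had -5.45 (adjusted p = 0.000421 by edgeR), or -7.23 without LINC00862 replicate 1, and TM4SF1 had 0.45 (adjusted p = 0.0182), a call that was lost under 5 of the 13 alternative fits. ROM1, a photoreceptor tetraspanin under another symbol, had -1.36 (adjusted p = 0.00397 by edgeR). Of the other uroplakins, UPK3B was the only gene tested and had -1.61 (adjusted p = 0.0051 by edgeR).

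**Figure D5:**
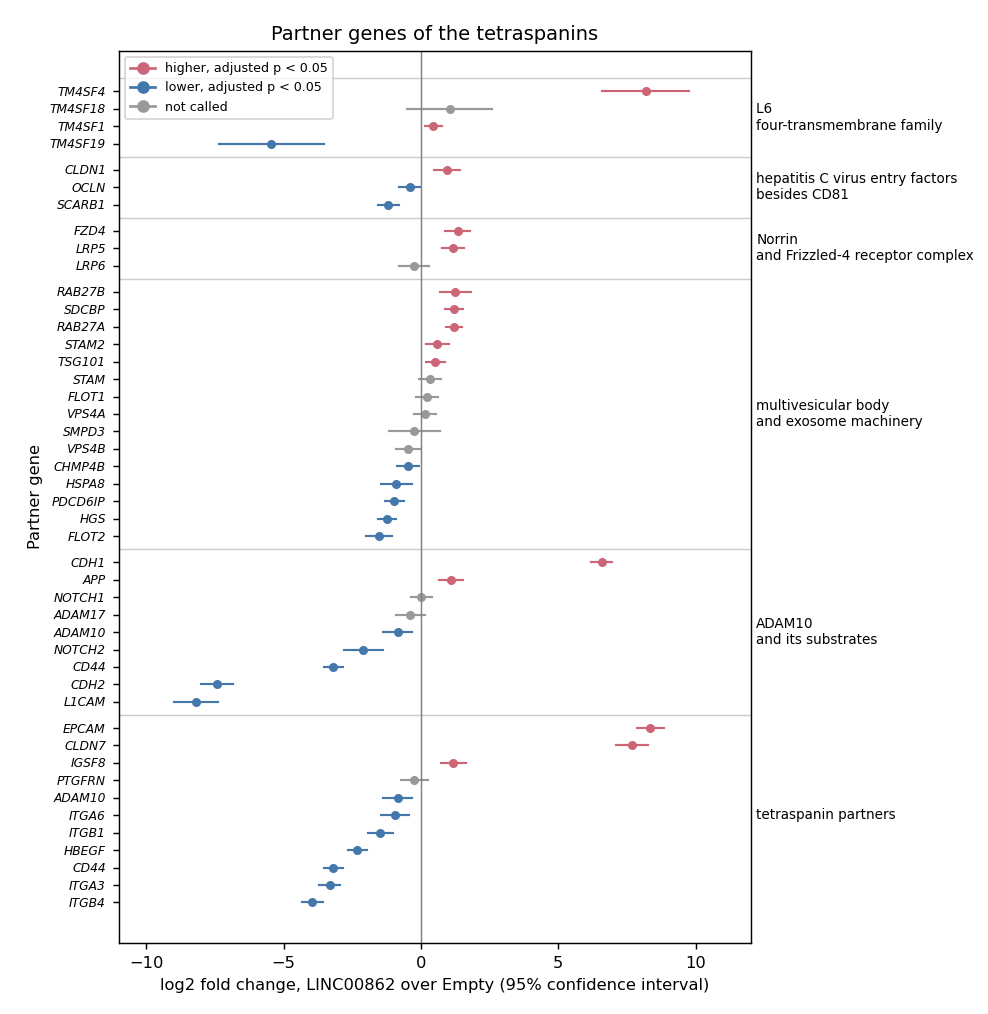
Fitted log2 fold changes of the tested genes in 6 partner lists with reads in both groups, LINC00862 over Empty, with 95% confidence intervals from edgeR, grouped by list. EPCAM and CLDN7 lie at 8.34 and 7.68, L1CAM and CDH2 at -8.19 and -7.43, and the exosome machinery between -1.53 and 1.25.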

How the data were processed

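RNA was sequenced from 3 Empty and 3 LINC00862 libraries of HCCLM3 cells. Libraries were made from oligo(dT)-captured RNA by a dUTP protocol that keeps strand. Samples were grouped by their titles. For each gene the authors deposited a raw read count and an FPKM value per library, the FPKM being scaled by them for transcript length and for mapped fragments. The submitters' processing notes name cutadapt 1.9, HISAT2 2.0.4, UMI-tools, StringTie 1.3.4d, DESeq2, edgeR and hg38. The role of each tool and the strand setting of the counting are not given in the sources used here. The deposited table held 0 value columns without a sample and 0 rows without a gene name.

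Counts of all genes were fitted with edgeR 4.0.16 in R 4.3.3 (filterByExpr, TMM, quasi-likelihood test, Benjamini-Hochberg adjustment over all 20741 genes tested, false discovery rate 0.05). Log2 fold changes are LINC00862 over Empty. Sums and shares of FPKM were compared by exact two-sided permutation tests, whose smallest p is 0.1 here. A count of 3 over a group was the floor, and intervals and floors cover counting error only. The fit was tested on simulated counts in which far fewer genes changed than here. That could check the code, but not the accuracy of the fit under so broad a difference. Alternative fits used upper quartile scaling, DESeq2 1.42.0, library size only, every gene with at least 1 count, a replicate block, leaving out each library, limma 3.58.1 on log2(FPKM + 1) and log2(FPKM + 0.1), a false discovery rate of 0.01 and a test against a fold change of 2. No alternative was added later.

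The tetraspanins and the gene lists were chosen with earlier results of these data known. By rule, full values are given for members with a mean of at least 1 FPKM in either group, and the others by count and range, or by library where a role group holds no other member. TSPAN2 and TSPAN19 were given by library after their values were seen. Genes of lists of up to 6 genes may be named, and of longer lists up to 4 called genes with the largest changes, plus ADAM10, EPCAM, CLDN7, LINC00862 and RBM47. A few genes of the lists are not reported here and were left out of the counts of their lists. The proteomics of the study was not analysed here. Gene positions are those of the deposited table, which equal GENCODE 29 for 12 of the 30 members. Promoters came from RefSeq (GRCh38.p14). Python 3.11.15 with pandas 2.3.3 and matplotlib 3.10.9 produced the tables and plots.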

Additional observations from a re-analysis of the deposited data

How the results depend on the processing

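The direction and call of 18 of the 19 called tetraspanins held in the 13 alternative fits that test against no change at a false discovery rate of 0.05, the exception being CD37. The number called ranged from 13, in the test against a fold change of 2, to 21, with 7 to 10 higher and 6 to 11 lower. Leaving out 1 library gave 18 to 21 tetraspanins. LINC00862 stayed higher throughout, at 2.91 to 3.83 with 1 library left out and 0.46 under limma on log2(FPKM + 1). All 160 alternative values of the shares kept their direction. For the 18 members whose shares did not overlap between the groups, leaving out 1 library could not have reversed it.

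The direction of small changes depended on the scaling and on single libraries. Across all tested genes the median change (log2) was 0.11, against 0.16 by DESeq2, 0.32 by upper quartile scaling and -0.05 by library size, and 53.6%, 55.1%, 60.4% and 48.5% of the called genes were higher. The summed tetraspanin FPKM was 98.2 higher in LINC00862, 39.6 to 157 with 1 library left out, and -262.6 after rescaling to equal totals. Without a call in any fit named here, TSPAN6 was 0.0248 under DESeq2 and 0.19 under upper quartile scaling, CD82 was 0.0746 under upper quartile scaling, CD81 was -0.10 with library size only, -0.0952 under limma on log2(FPKM + 1) and -0.0983 on log2(FPKM + 0.1), and CD53 was -0.0071 and -0.0413 under those limma fits. With 1 library left out, TSPAN6 ranged from -0.103 to 0.0768, CD82 from -0.253 to 0.0809, CD81 from -0.142 to 0.262, CD53 from -0.0827 to 0.407 and LRP6 from -0.417 to 0.111.

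No pairing by replicate number was seen, since same-numbered libraries correlated at -0.048, -0.027 and -0.0063 in their deviations. Whether they shared a culture or batch cannot be told from this. With the replicate block, 12098 genes and 19 tetraspanins were called, and 1 gene of the L6 list was higher.

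The test against a fold change of 2 called 8010 genes, 3204 of them lower. Under it, the ADAM10 list had 1 higher, the exosome list 2 called, 0 higher and 2 lower, the Norrin list 1 called and 1 higher, the uroplakins 0 called and 0 lower, the hepatitis C entry list 1 called, 1 higher and 0 lower, the L6 list 1 higher, and the tetraspanins under other symbols 0 called and 0 lower. At a false discovery rate of 0.01, the exosome list had 6 called, 3 higher and 3 lower and the L6 list 1 higher. With library size only and under both limma fits, the exosome list had 3 higher and the L6 list 1. By DESeq2, upper quartile scaling, every gene kept, the replicate block and a false discovery rate of 0.01, the hepatitis C entry list had 1 lower, and 1 to 2 with 1 library left out, as OCLN lost its call. With every gene kept, 2 uroplakins were called, 1 of them higher. With 1 library left out, the exosome list had 3 to 6 higher and the L6 list 1 to 2. Stricter thresholds call fewer genes by construction, and the cause of the other shifts was not tested. With 3 libraries a group, changes as small as those of CD81, CD82 and TSPAN6 could not be resolved from scaling.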
